A study of Mus musculus with 3 samples.

Results

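Arginine is the branch point of several routes in macrophages. Inducible nitric oxide synthase, encoded by Nos2, oxidizes it to nitric oxide and citrulline, and arginine is also a source of ornithine. Ornithine feeds proline, used in collagen, and the polyamines, which are made by ornithine decarboxylase (Odc1) and spermidine synthase (Srm) and turned over by spermidine/spermine acetyltransferase (Sat1). Arginine enters cells through the cationic amino acid transporters Slc7a2 (CAT2) and Slc7a1 (CAT1), and citrulline is recycled toward arginine by argininosuccinate synthase (Ass1). High Nos2 is a familiar mark of macrophages activated by microbial products and interferon. These 7 genes, chosen by name, were followed here out of 54752 gene symbols in the count tables.

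Cardiac mononuclear phagocytes (MPCs), sorted as CD45+F4/80+ cells from the infarct and border zones, came from C57BL/6 pups operated at postnatal day 10 (P10) and examined 3 days later, at postnatal day 13. In P10-sham_vehicle, pups underwent surgery without ligation of the coronary artery and received vehicle, and in P10-MI_vehicle the left anterior descending artery was tied to cause a myocardial infarction (MI) and vehicle was given. In P10-MI_SB225002, pups with MI were injected daily with SB225002, an antagonist of the chemokine receptor CXCR2, which guides neutrophils into tissue. All 3 groups were wild type and of both sexes, hearts were pooled, and an injected drug reaches every cell that carries the receptor, not MPCs alone. Each condition had 1 library, so condition and library cannot be told apart. For that reason conditions were not tested against each other, and every interval given covers counting error only. P10-MI_vehicle serves in both comparisons, against sham and against SB225002.

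The libraries held 3390 (P10-sham_vehicle), 4511 (P10-MI_vehicle) and 5783 (P10-MI_SB225002) barcodes, and 2351, 3453 and 4744 cells passed the limits of 500 to 30000 UMIs (unique molecular identifiers, each counting 1 captured RNA molecule), 500 to 5000 genes and a mitochondrial share under 10%. The median depth of these cells was 8521, 6400 and 5654 UMIs. Barcodes recurred between libraries: 786 kept barcodes were common to the sham and vehicle libraries, 842 to the sham and SB225002 libraries and 1355 to both MI libraries. Cells with the same barcode fell into the same gate about as often as the gates' shares give. In the MI pair 65.4% did so against 65.8% by shares. The values were 69.3% against 69.1% for sham and vehicle, and 70.7% against 70.3% for sham and SB225002. Of the 73 vehicle cells with Slc7a2 whose barcode recurred in the SB225002 library, 5 matched a cell with Slc7a2 (6.85%, against 5.38% for vehicle cells without it). Of 30 such sham cells 1 matched in the vehicle library (3.33%, against 5.69%), and of 27 such sham cells 3 matched in the SB225002 library (11.1%, against 6.75%).

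Cells were gated on marker genes that do not include the 7 members, though the gate limits were set after the member values had been seen. A cell counted as an MPC when it had UMIs of at least 4 of 12 phagocyte genes (such as Adgre1, which encodes F4/80, Csf1r, Cx3cr1 and C1qa) and not the markers of another cell type. This gate held 2036 sham, 2717 vehicle and 3715 SB225002 cells, 8468 of 10548 in all. All 12 markers were found in it in every library, but the gate is drawn by these genes, so this is no check of it. Within it, Lyve1+Folr2+ cells, a pattern of resident cardiac macrophages, made up 72.7%, 52.0% and 30.2% in the same order, and Spp1+Gpnmb+ cells, a pattern of infarct macrophages, 0.589%, 11.5% and 32.0%. The median UMI count of the MPCs was 8669 in sham, 6383 in vehicle and 5818 in SB225002, so shares of cells with a UMI are also given after thinning every cell to 2000 UMIs. Levels are UMIs of the gene per 1000000 UMIs of the gated cells (CPM).

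The members are spread over the genome. In the GRCm38 build, with GENCODE vM21 gene bounds matched by symbol, Nos2 lies at chr11:78920787-78960254 on the plus strand. The transporters lie at chr8:40862396-40922308 on the plus strand (Slc7a2) and chr5:148327410-148399904 on the minus strand (Slc7a1), and Ass1 at chr2:31470207-31520672 on the plus strand. The polyamine genes lie at chr12:17544794-17551505 on the plus strand (Odc1), chr4:148591503-148594993 on the plus strand (Srm) and chrX:155213132-155216449 on the minus strand (Sat1). All 7 are annotated as protein coding. RefSeq promoter sequences, from 250 bases before to 50 bases after the start site in GRCm38.p6, were at hand for 4 of the 7. Those of Ass1 and Odc1 are shown because Ass1 was among the members higher after MI and Odc1 among those higher in the SB225002 library. They are at chr2:31470020-31470319 (Ass1, plus strand) and chr12:17544623-17544922 (Odc1, plus strand), written 5' to 3', with capitals marking the E-box CACGTG, the GC box GGGCGG and its reverse complement CCGCCC:
Ass1: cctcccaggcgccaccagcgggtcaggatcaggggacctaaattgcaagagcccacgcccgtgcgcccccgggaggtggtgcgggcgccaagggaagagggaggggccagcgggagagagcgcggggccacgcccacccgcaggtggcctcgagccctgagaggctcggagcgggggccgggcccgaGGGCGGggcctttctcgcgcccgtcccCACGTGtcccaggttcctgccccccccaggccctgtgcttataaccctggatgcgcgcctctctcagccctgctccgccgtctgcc
Odc1: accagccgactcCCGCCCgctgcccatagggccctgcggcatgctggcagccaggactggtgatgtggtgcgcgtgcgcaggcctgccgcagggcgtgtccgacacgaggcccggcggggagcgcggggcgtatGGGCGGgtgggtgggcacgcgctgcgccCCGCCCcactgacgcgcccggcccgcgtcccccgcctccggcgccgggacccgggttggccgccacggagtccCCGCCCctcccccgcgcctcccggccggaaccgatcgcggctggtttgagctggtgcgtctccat
The Ass1 window held 1 E-box, 36 bases before the start site, and 1 GC box, 63 bases before it. Odc1, a textbook target of the transcription factor MYC, held no CACGTG within these bases and 4 GC boxes counted on both strands. Of 32851 promoter windows of this length, 7.15% held CACGTG and 35.7% a GC box on either strand. TATAAA, searched on both strands, was in 13.6% of windows and in neither of these. A match of letters is a description and does not show that a factor binds there.

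A level of 10 CPM in vehicle or sham MPCs was reached by 8743 genes. Of these 236 were at least 2-fold higher in vehicle (2.7%) and 15 at least 2-fold lower (0.172%), together 2.87%. Of the 7 members, 6 passed this level, Nos2 did not, and 2 were at least 2-fold higher, Slc7a2 and Ass1. None was 2-fold lower, and the median log2 ratio was 0.18 over these 6 against -0.07 over all genes. Between SB225002 and vehicle, 28 of 8666 genes were at least 2-fold higher (0.323%) and 88 lower (1.02%), together 1.34%. None of the 6 members that passed was past 2-fold either way, with Odc1 (log2 ratio 0.68) and Srm (0.66) the furthest. Their median log2 ratio was 0.22, against -0.04 over all genes. The genes that passed did so partly through the library where they were high, so these counts describe the members and are no test of them. The bar plots give each member's level.

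**Figure D1:**
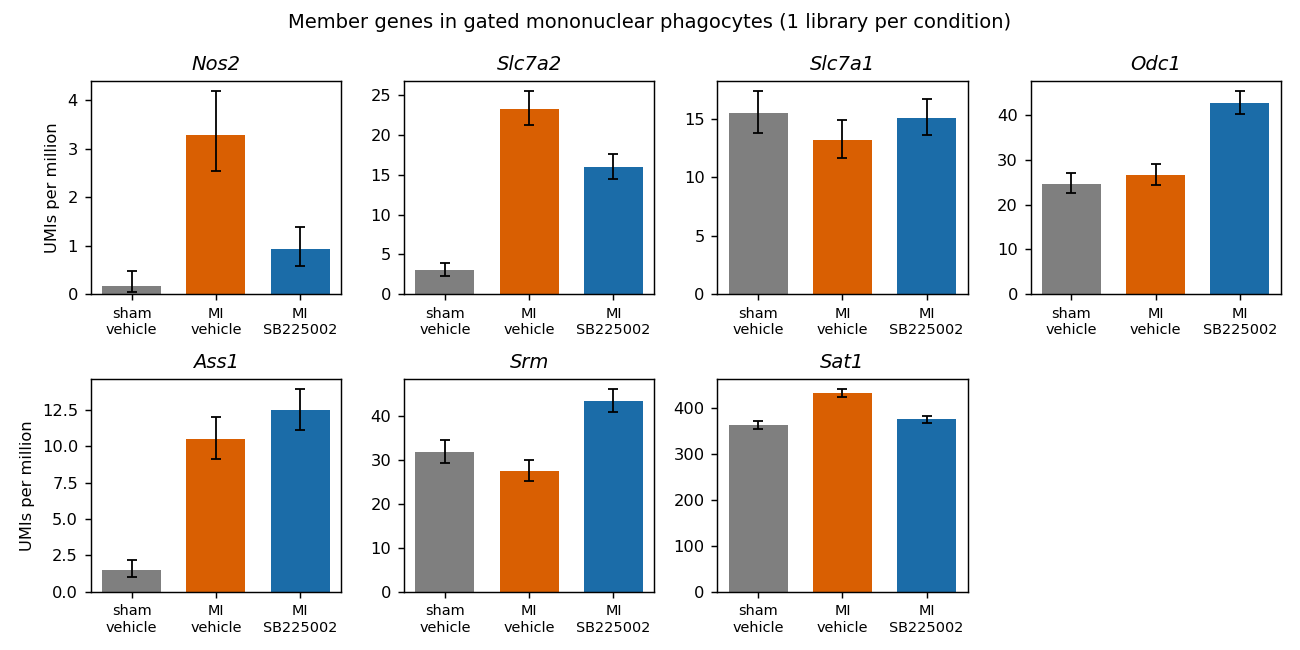
Level of each member gene in gated mononuclear phagocytes, in CPM, for the 3 libraries; bars are 1 library each and error bars are 95% exact Poisson intervals (counting error only). Nos2 and Slc7a2 were highest in P10-MI_vehicle, and Odc1 and Srm were highest in P10-MI_SB225002.

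Slc7a2, the transporter that supplies arginine to activated macrophages, was higher in both MI libraries than in sham. In MPCs it was at 3.03 CPM in sham (57 UMIs, 95% exact Poisson interval 2.29 to 3.92), 23.3 CPM in vehicle (467 UMIs, 21.2 to 25.5) and 16.0 CPM in SB225002 (397 UMIs, 14.5 to 17.6), and the intervals do not overlap. The vehicle level was 7.69-fold the sham level (exact conditional interval 5.83 to 10.3), and the SB225002 level was 0.686-fold the vehicle level (0.599 to 0.786). Without cells whose barcode is also listed in another library, 792 of 2036 sham, 1129 of 2717 vehicle and 1938 of 3715 SB225002 MPCs remained. They held 19, 129 and 127 Slc7a2 UMIs, and the levels were 3.08, 18.7 and 11.5 CPM in the same order.

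The Slc7a2 UMIs of the MI libraries sat in few cells. Of all Slc7a2 UMIs in MPCs, 50% were in 9 of 2717 vehicle cells and 22 of 3715 SB225002 cells, while the 57 sham UMIs came from 53 cells with at most 3 each. Cells with at least 10 Slc7a2 UMIs numbered 13 in vehicle and 7 in SB225002 and held 62.3% and 29.2% of the UMIs. Without the 10 cells highest in Slc7a2 in each library, the levels were 2.30, 10.6 and 10.4 CPM, so the vehicle library stayed above sham (log2 ratio 2.20) and the MI libraries lay close together (log2 ratio -0.03). After thinning, the SB225002 level was not below the vehicle level (log2 ratio 0.11). The share of MPCs with a Slc7a2 UMI was 2.60%, 4.09% and 4.74% in sham, vehicle and SB225002, and after thinning 0.615% (Clopper-Pearson 95% interval 0.318 to 1.07), 1.79% (1.30 to 2.39) and 1.89% (1.45 to 2.41), with 84, 253 and 432 shallower cells left out. In neutrophils, gated by S100a8, S100a9 and other neutrophil genes, 0%, 0% and 1.20% of cells had a UMI. After thinning, none of 24, 89 and 153 cells had one, with upper limits of 14.2%, 4.06% and 2.38%. With 0 detections in so few cells, these limits lie above the thinned MPC shares in any case. The thinned shares therefore do not compare MPCs with neutrophils. By summed level, neutrophils had 0 Slc7a2 UMIs in vehicle (exact Poisson interval up to 3.02 CPM) and 1.75 CPM in SB225002 (0.212 to 6.32). These lie below the MPC levels of 23.3 and 16.0 CPM, with intervals that cover counting error only. The 24 sham neutrophils also had 0 UMIs, too few cells to place against the sham MPCs. The plot of ranked cells shows the concentration.

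**Figure D2:**
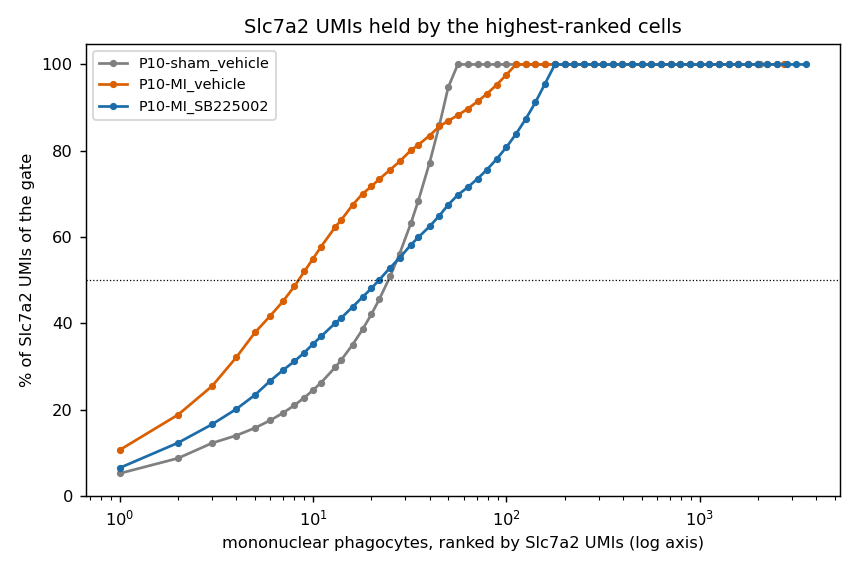
Share of all Slc7a2 UMIs of the mononuclear phagocyte gate (vertical axis, %) held by the cells ranked highest in Slc7a2 (horizontal axis, number of cells, log axis), for each library; the dotted line marks 50%. The line is crossed at 9 cells in P10-MI_vehicle and 22 cells in P10-MI_SB225002.

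By gate, the highest Slc7a2 levels were in the Prg4+Serpinb2+ cells, 1078 CPM in vehicle (944 to 1226) and 699 CPM in SB225002 (548 to 878), from 19 cells each. A few of these cells carried most of the 232 vehicle and 73 SB225002 UMIs. Without the 10 cells highest in Slc7a2 in each library, 17 C1q+ and 4 C1q-low UMIs remained in vehicle, and 18 and 4 in SB225002. The gate takes MPCs with at least 5 UMIs per 10000 summed over 6 genes: Prg4, Serpinb2, Alox15, Gata6, Selp and Icam2. No single gene is required, Prg4 and Serpinb2 included. Some, Gata6 among them, are known from macrophages of the serous cavities, and whether these cells resemble those was not tested. In vehicle, C1q-low cells of no other gate followed with 152 CPM (48 cells), Ly6c-low monocytes with 76.6 CPM, of which 13 of 14 UMIs lay in 1 cell, and Spp1+Gpnmb+ cells with 32.1 CPM (313 cells). Other C1q+ macrophages had 7.81 CPM, Lyve1+Folr2+ macrophages 3.44 CPM, MHC II-high cells 3.28 CPM and Ly6c-high monocytes 0.899 CPM, from 1 UMI. The interval of the Ly6c-low monocytes (41.9 to 129) overlaps that of the C1q-low cells above them (111 to 203), and those of the Lyve1+Folr2+ (2.37 to 4.84), MHC II-high (0.397 to 11.8) and Ly6c-high cells (0.0228 to 5.01) overlap each other. In sham, Lyve1+Folr2+ macrophages were at 3.16 CPM and other C1q+ macrophages at 2.55 CPM. Outside the phagocytes, fibroblasts had 13.6, 28.1 and 22.5 CPM in sham, vehicle and SB225002, with at most 3 UMIs in a cell, and B cells had 0 UMIs in all 3 libraries.

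**Figure D3:**
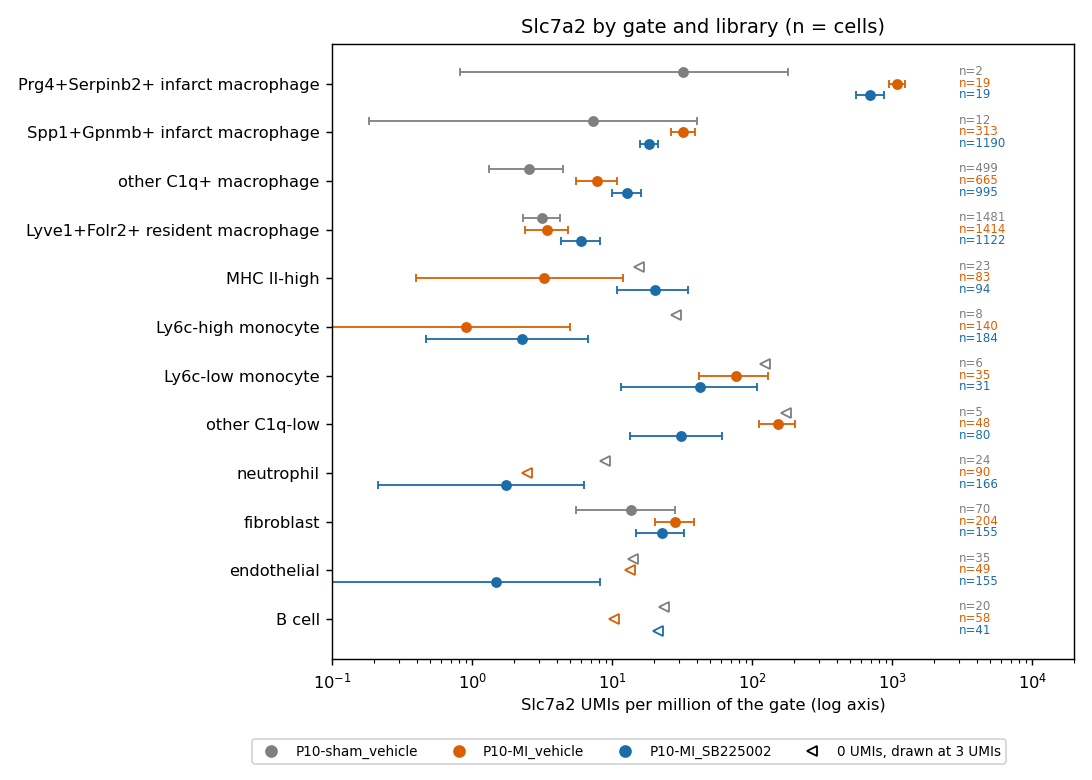
Slc7a2 level (CPM, log axis) in each phagocyte gate and in neutrophils, fibroblasts, endothelial cells and B cells, by library; points are sums over the gate's cells, bars are 95% exact Poisson intervals, n is the number of cells and open triangles mark 0 UMIs drawn at 3 UMIs. The Prg4+Serpinb2+ gate lies furthest right in both MI libraries, and P10-MI_SB225002 lies above P10-MI_vehicle in the other C1q+ and Lyve1+Folr2+ gates and below it in the Spp1+Gpnmb+ and other C1q-low gates.

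The direction of Slc7a2 between the MI libraries depended on the gate. In C1q+ MPCs it was at 7.01 CPM in vehicle and 17.1 CPM in SB225002, 2.44-fold higher (1.98 to 3.02), and in C1q-low MPCs at 124 and 10.6 CPM, 0.0849-fold (0.0606 to 0.116). The cells richest in Slc7a2 lay on different sides of the C1q limit in the libraries: those with at least 10 UMIs were 3 C1q+ and 10 C1q-low cells in vehicle and 7 C1q+ and 0 C1q-low cells in SB225002, and of the Slc7a2 UMIs of the Prg4+Serpinb2+ gate 199 were C1q-low and 33 C1q+ in vehicle against 4 and 69 in SB225002. Without the 10 cells highest in Slc7a2 in each library the folds were 1.70 (1.34 to 2.17) in C1q+ and 0.262 (0.180 to 0.376) in C1q-low MPCs. Within single gates it was 0.566-fold in Spp1+Gpnmb+ cells (32.1 to 18.2 CPM), 0.648-fold in Prg4+Serpinb2+ cells, 0.204-fold in the other C1q-low cells (152 to 31.0 CPM), 1.74-fold in Lyve1+Folr2+ cells (3.44 to 6.00 CPM) and 1.62-fold in other C1q+ cells (7.81 to 12.7 CPM). The Prg4+Serpinb2+ value rested on few cells. Without the 10 cells highest in Slc7a2 in each library, that gate kept 17 C1q+ and 4 C1q-low UMIs in vehicle, and 18 and 4 in SB225002. The share of the MPCs in each gate also differed between the libraries: with the gates weighted to the vehicle library the pooled log2 ratio was -0.32 in place of -0.54. Slc7a1 is the housekeeping arginine transporter. Its MPC levels were 15.5, 13.2 and 15.1 CPM in sham, vehicle and SB225002, with overlapping intervals, and the ratios were 0.852 (0.718 to 1.01) and 1.14 (0.974 to 1.34). By gate, SB225002 over vehicle was 0.967-fold in Spp1+Gpnmb+ cells (0.680 to 1.40), 1.18-fold in Lyve1+Folr2+ cells (0.893 to 1.57) and 1.31-fold in other C1q+ cells (0.944 to 1.82), with intervals across 1. MPCs with 3 or more Slc7a2 UMIs had more Slc7a1 than those without Slc7a2, at 31.9 against 12.4 CPM in vehicle (2.58-fold, 15 UMIs) and 32.2 against 14.9 CPM in SB225002 (2.16-fold, 10 UMIs). No MPC had more than 4 Slc7a1 UMIs, and B cells had 70.1, 72.1 and 63.4 CPM.

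**Figure D4:**
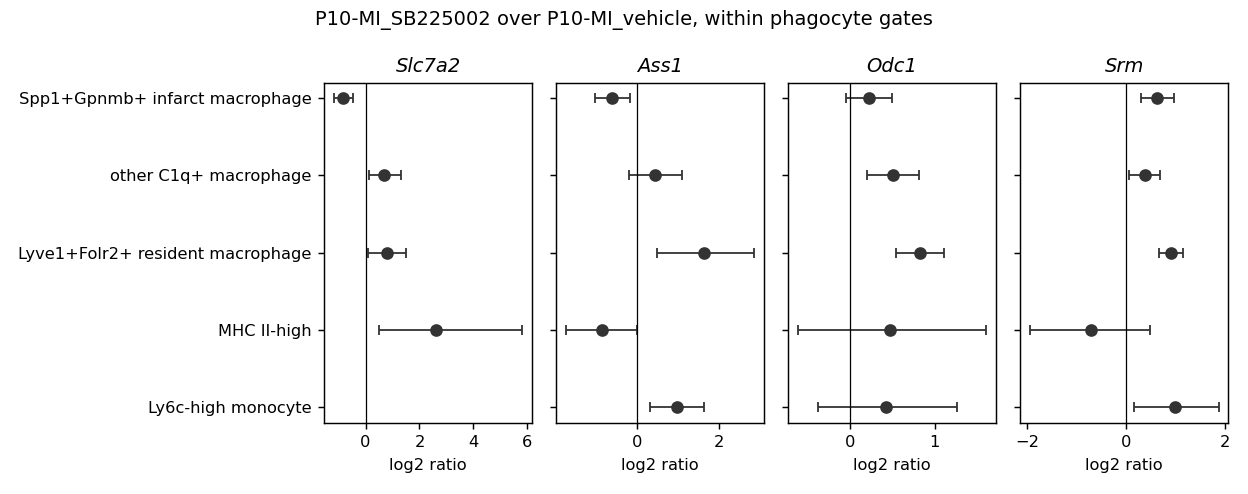
Log2 ratio of P10-MI_SB225002 over P10-MI_vehicle for Slc7a2, Ass1, Odc1 and Srm within 5 phagocyte gates; points are ratios of summed UMIs, scaled to CPM, bars are 95% exact conditional intervals (counting error only) and the vertical line marks no difference; Slc7a2 has no point for Ly6c-high monocytes, where it had 1 and 3 UMIs. Slc7a2 and Ass1 lie on both sides of the line, Odc1 lies right of it or across it, and Srm right of it except in MHC II-high cells, where its interval crosses the line.

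MPCs with at least 3 Slc7a2 UMIs, 32 in vehicle and 33 in SB225002, were set against those without Slc7a2 in the same library. In vehicle, genes standing far above the cells without Slc7a2 included Stfa3 (8888 against 42.9 CPM), the carbonic anhydrase Car4 (1258 against 0.588 CPM), Cxcl3, a neutrophil chemoattractant (1337 against 4.22 CPM), Serpinb2, a plasminogen activator inhibitor (756 against 1.44 CPM), and Saa3, an acute-phase protein of macrophages (22581 against 438.5 CPM). In SB225002 they included Saa3 (3259 against 80.2 CPM), the lipoxygenase Alox15 (184 against 0.645 CPM), the protease inhibitor Slpi (667 against 34.9 CPM), the scavenger receptor Marco (634 against 39.8 CPM) and the chemokine Ccl24 (889 against 62.7 CPM). Several were higher in both libraries: Marco was at 381 against 22.9 CPM and Ccl24 at 219 against 42.8 CPM in vehicle, and Serpinb2 was at 74.1 against 0.516 CPM in SB225002. Prg4 was 896-fold higher in vehicle and 85.2-fold in SB225002, and Fn1, which encodes fibronectin, 15.3-fold and 6.11-fold. Levels in these cells also differed between the libraries. Cxcl3 in the SB225002 cells with at least 3 Slc7a2 UMIs was at 32.2 CPM and Il1b at 12.9 CPM, against 1337 and 579 CPM in those of vehicle. The complement gene C1qa was at 685 CPM in the vehicle cells and 2634 CPM in the SB225002 cells, and the heme-degrading enzyme Hmox1 at 194 and 1018 CPM. Cells with 3 or more Slc7a2 UMIs were also deeper, with a median of 15089.5 UMIs against 6272 in the vehicle cells without Slc7a2 and 9983 against 5705 in SB225002, and they are a range cut from a count, not a cell type. Saa3 and Stfa3 have close copies in the genome with which reads may be shared.

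These cells fell into different gates and differed in Xist. In vehicle 31.2% of them were in the Prg4+Serpinb2+ gate, 31.2% in the Spp1+Gpnmb+ gate, 15.6% in the C1q-low remainder and 12.5% in other C1q+ macrophages. In SB225002 36.4% were Spp1+Gpnmb+, 27.3% other C1q+ and 24.2% Prg4+Serpinb2+. Gpnmb itself was found in 15.6% of these vehicle cells, so not every cell of the Spp1+Gpnmb+ gate had it. Its level was 29.8 CPM in them against 102 CPM in vehicle MPCs without Slc7a2. The corresponding SB225002 levels were 142 and 353 CPM. Xist, expressed from the inactive X of females, was detected in 6.25% of the vehicle cells with at least 3 Slc7a2 UMIs and in 25.5% of those without Slc7a2, although the former were deeper, and Y-linked genes (Ddx3y, Eif2s3y, Kdm5d or Uty) in 87.5% and 49.2%. In SB225002 Xist was in 24.2% and 36.2%, and Y-linked genes in 60.6% and 36.9%. The summed level of the Y-linked genes was 143 CPM (111 to 181) and 131 CPM (126 to 136) in vehicle and 119 CPM (83.9 to 164) and 95.9 CPM in SB225002, with intervals that overlap in each library. The Xist level was 10.6 and 216 CPM in vehicle and 148 and 308 CPM in SB225002. In MPCs with 1 to 2 Slc7a2 UMIs, Xist was in 36.5% of the sham, 22.8% of the vehicle and 42.0% of the SB225002 cells, against 36.1%, 25.5% and 36.2% of those without Slc7a2. The share in the vehicle cells with 3 or more UMIs, 2 of 32, had a Clopper-Pearson interval of 0.766% to 20.8%, below the share without Slc7a2, while that of SB225002, 8 of 33, had one of 11.1% to 42.3%, which holds it. Pups of both sexes were pooled, and the part of sex in the Slc7a2 levels was not tested.

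**Figure D5:**
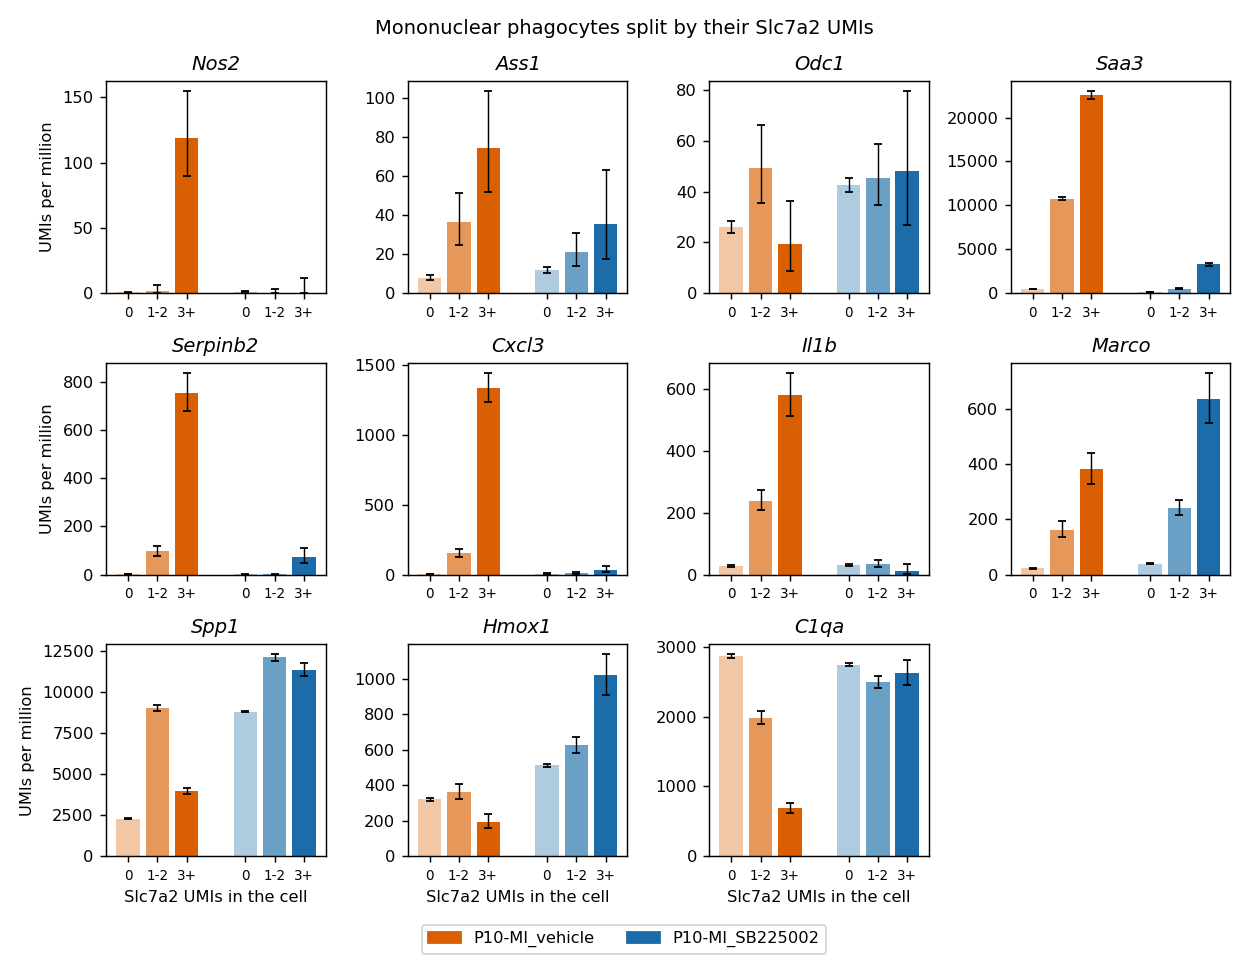
Levels of 3 members and 8 other genes (CPM) in mononuclear phagocytes with 0, 1 to 2, or 3 and more Slc7a2 UMIs, in P10-MI_vehicle and P10-MI_SB225002; bars are sums over the cells of a class and error bars are 95% exact Poisson intervals. Nos2, Ass1, Saa3, Serpinb2, Cxcl3 and Il1b are highest in the class of 3 or more of P10-MI_vehicle, and Marco and Hmox1 in that class of P10-MI_SB225002.

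Nos2 was rare in MPCs. It had 3 UMIs in sham, 66 in vehicle and 23 in SB225002, or 0.159, 3.29 and 0.926 CPM, with intervals of 0.0329 to 0.466, 2.55 to 4.19 and 0.587 to 1.39 CPM, which do not overlap. The vehicle level was 20.7-fold the sham level (6.77 to 103), from 3 sham UMIs, or a log2 ratio of 4.37, which was 1.25 after thinning and 2.72 without the 10 cells highest in Slc7a2. The SB225002 level was 0.281-fold the vehicle level (0.167 to 0.458), a log2 ratio of -1.83. This was -0.19 without those 10 cells and 0.17 after thinning. Both thinned ratios rest on 2 sham, 4 vehicle and 6 SB225002 MPCs with a Nos2 UMI, too few to give a direction. The vehicle UMIs came from 14 cells. Of these, 8 also carried Slc7a2 and 7 had at least 3 Slc7a2 UMIs, and the 6 cells with 3 or more Nos2 UMIs, which held 83.3% of the Nos2 UMIs, all had at least 3 Slc7a2 UMIs. Nos2 stood at 119 CPM in the vehicle MPCs with at least 3 Slc7a2 UMIs and 0.481 CPM in those without Slc7a2. In SB225002 the 23 UMIs were spread over 16 cells, none of them with Slc7a2. Cells high in both the transporter and inducible nitric oxide synthase were thus found in the vehicle library, and they were 6 cells.

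Across the gates, 34 of the 66 vehicle Nos2 UMIs were in the Prg4+Serpinb2+ gate (158 CPM) and 20 among other C1q-low cells (67.5 CPM), and the 313 Spp1+Gpnmb+ cells had 0, with a limit of 0.945 CPM. After thinning to 2000 UMIs it was found in 0.102%, 0.162% and 0.183% of sham, vehicle and SB225002 MPCs, too few to order the libraries. Outside the MPCs, Nos2 was at 41.3, 49.9 and 56.0 CPM in neutrophils of sham, vehicle and SB225002 and at 28.0, 8.90 and 23.5 CPM in endothelial cells. Transcripts of the neutrophil list were also found in the MPC gate: its 11 genes summed to 660 CPM in sham, 2608 CPM in vehicle and 3537 CPM in SB225002. Of the 11, 10, 10 and 11 were detected, with S100a8 the most abundant at 328, 1456 and 1742 CPM. The paper describes infiltrating monocytes, mostly negative for Ly6G, with enhancer signal at S100a8 and S100a9. The list and the neutrophil gate set by it are therefore not shown to hold neutrophils alone. The part of these transcripts in the Nos2 levels was not tested.

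Ass1, which returns citrulline to arginine, had 28 UMIs in sham, 210 in vehicle and 310 in SB225002 MPCs, or 1.49, 10.5 and 12.5 CPM. The vehicle level was 7.04-fold the sham level (4.73 to 10.9), a log2 ratio of 2.82, which was 1.36 with the gates weighted to the vehicle library. Within gates, sham and vehicle were at 0.661 and 1.04 CPM in Lyve1+Folr2+ macrophages (1.58-fold, 0.576 to 4.39) and 3.19 and 6.99 CPM in other C1q+ macrophages (2.19-fold, 1.16 to 4.32). Over all MPCs the MI libraries were not distinguishable by counting error, at 1.19-fold (0.997 to 1.43), a log2 ratio of 0.25 (-0.0045 to 0.51). This depended on the cells used. Without barcodes listed in another library the levels were 7.70 CPM in vehicle and 11.8 CPM in SB225002, a log2 ratio of 0.62, outside that interval. That setting kept 1129 of 2717 vehicle and 1938 of 3715 SB225002 MPCs, and its ratio is given here without an interval of its own. With the mitochondrial limit of 5% the log2 ratio was -0.00846. In vehicle it was at 87.8 CPM in the other C1q-low cells (57.3 to 129, 26 UMIs in 48 cells), 54.1 CPM in MHC II-high cells, 37.2 CPM in Prg4+Serpinb2+ cells (8 UMIs), 26.1 CPM in Ly6c-high monocytes, 21.4 CPM in Spp1+Gpnmb+ cells and 1.04 CPM in Lyve1+Folr2+ macrophages. In SB225002 the Ly6c-high monocytes were at 50.9 CPM, the MHC II-high cells at 29.6 CPM and the other C1q-low cells at 23.2 CPM (6 UMIs), so for the first 2 their order was the reverse of that in vehicle, with intervals that overlap in each library. In Spp1+Gpnmb+ cells Ass1 was 0.649-fold (0.482 to 0.880) and in Lyve1+Folr2+ macrophages 3.10-fold (1.40 to 7.37), from 21 and 10 UMIs. The vehicle MPCs with at least 3 Slc7a2 UMIs had 74.5 CPM, against 7.69 CPM in those without Slc7a2 (9.68-fold), and the corresponding SB225002 levels were 35.4 and 11.7 CPM (3.03-fold). After thinning, Ass1 was found in 15.9% of the 44 vehicle MPCs with a Slc7a2 UMI and 1.12% of the others, and in SB225002 in 4.84% of 62 and 1.58%.

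The polyamine genes Odc1 and Srm formed a second pattern: little difference after MI and a higher level in SB225002. Odc1, the first enzyme of polyamine synthesis, was at 24.7, 26.7 and 42.7 CPM in sham, vehicle and SB225002 MPCs, 1.60-fold higher in SB225002 than in vehicle (1.44 to 1.78), and 1.08-fold in vehicle against sham (0.952 to 1.23). Srm, the next enzyme, was at 31.7, 27.4 and 43.4 CPM, 1.58-fold higher in SB225002 than in vehicle (1.42 to 1.75) and 0.865-fold in vehicle against sham (0.769 to 0.973). Both were higher in SB225002 within Lyve1+Folr2+ macrophages, Odc1 at 36.6 against 20.7 CPM and Srm at 48.9 against 26.2 CPM, and within other C1q+ cells, at 1.42-fold and 1.30-fold. In Spp1+Gpnmb+ cells Srm was 1.54-fold (1.24 to 1.94) and Odc1 1.16-fold (0.963 to 1.41). In 3 small gates Srm stood lower in SB225002, each with an interval across 1, at 17.1 against 27.9 CPM in MHC II-high cells, 15.5 against 37.1 CPM in other C1q-low cells and 28.7 against 51.1 CPM in Prg4+Serpinb2+ cells. Odc1 was also lower there in Prg4+Serpinb2+ cells (3 of 104491 UMIs against 8 of 215180 in vehicle). In other C1q-low cells it was slightly lower (12 of 258252 against 14 of 296234). Odc1 differed by Slc7a2 class in vehicle without a steady direction, at 25.9 CPM in MPCs without Slc7a2 (23.6 to 28.3), 49.2 CPM in those with 1 to 2 Slc7a2 UMIs (35.4 to 66.5) and 19.2 CPM in those with 3 or more (8.76 to 36.4). In SB225002 the same classes were at 42.5, 45.6 and 48.3 CPM, with intervals that overlap. Srm in MPCs with 3 or more Slc7a2 UMIs and in those without was at 77.3 and 42.9 CPM in SB225002 (1.80-fold) and 42.6 and 26.2 CPM in vehicle (1.63-fold, with an interval across 1). Both were also detected outside the MPCs, with Odc1 at 83.6 and 106 CPM and Srm at 75.2 and 96.6 CPM in vehicle and SB225002 fibroblasts.

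Sat1, which acetylates spermidine and spermine for export or breakdown, differed the other way by a small amount. It was at 362, 431 and 374 CPM in sham, vehicle and SB225002 MPCs, 1.19-fold in vehicle against sham (1.15 to 1.23) and 0.867-fold in SB225002 against vehicle (0.842 to 0.893). It was detected in 83.2%, 80.0% and 75.2% of the MPCs and, after thinning, in 47.7%, 53.6% and 48.8%. By gate its SB225002 levels were lower than the vehicle levels in Spp1+Gpnmb+ cells (479 to 400.5 CPM), Lyve1+Folr2+ cells (396 to 349 CPM) and Ly6c-high monocytes (581 to 390 CPM). Its highest levels over at least 30 cells were in Ly6c-low monocytes, at 1106 CPM in vehicle and 632 CPM in SB225002. The top 1% of cells held 5.89%, 6.62% and 6.36% of its UMIs.

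Polyamines are needed by dividing cells, so the members were compared between MPCs with at least 3 of 6 mitotic genes (such as Mki67 and Top2a; 543, 487 and 928 cells in sham, vehicle and SB225002) and MPCs with none. Odc1 was somewhat higher in dividing cells in each library, at 1.37-fold in sham, 1.25-fold in vehicle and 1.17-fold in SB225002, and Slc7a1 at 1.86-fold, 1.35-fold and 1.21-fold, the last with an interval across 1. Sat1 was lower, at 0.684-fold, 0.649-fold and 0.730-fold. The difference of Odc1 between the MI libraries was present in both classes, 1.55-fold in dividing (1.28 to 1.88) and 1.65-fold in non-dividing cells (1.40 to 1.94). Slc7a2 differed between the classes in vehicle, at 4.84 CPM in dividing and 22.3 CPM in non-dividing MPCs, while in SB225002 it was at 13.1 and 15.1 CPM, with overlapping intervals. The SB225002 level was therefore 2.72-fold the vehicle level in dividing MPCs (1.73 to 4.42) and 0.678-fold in non-dividing ones (0.547 to 0.837). The dividing and non-dividing classes held 24 and 227 of the 467 vehicle UMIs, and 110 and 148 of the 397 SB225002 UMIs. The rest lay in MPCs between the limits, which are in neither class. Over all MPCs except the dividing ones, the levels were 29.4 CPM in vehicle and 17.4 CPM in SB225002. Dividing cells were deeper, with medians of 9693 against 5599 UMIs in vehicle.

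The rest of the pathway was read from gene lists. Of 51 listed genes outside the members, in transport, the citrulline and urea steps, ornithine to proline, polyamines, hypusination of eIF5A and nitric oxide with its cofactor, 30 passed 10 CPM in vehicle or sham MPCs and none was past 2-fold, where 2.87% of all genes were, so the count sets these genes apart in no way. The list medians were -0.11 (4 of 8 transport genes), -0.16 (5 of 8 citrulline and urea genes), -0.14 (2 of 6 proline genes), -0.09 (10 of 13 polyamine genes), -0.00 (3 of 4 hypusination genes) and -0.22 (6 of 12 nitric oxide genes) on the log2 scale, against -0.07 for all genes. The furthest were the large neutral amino acid transporter Slc7a5 (16.7 to 10.03 CPM), the antizyme inhibitor Azin2 (10.5 to 6.74 CPM), Ddah2, which degrades inhibitors of nitric oxide synthase (18.4 to 11.9 CPM), and the polyamine oxidase Paox (37.8 to 27.4 CPM). In SB225002 against vehicle 29 passed and none was past 2-fold, against 1.34% of all genes, which again says nothing particular to them. Of all genes tested 45.3% lay above 0. All 3 hypusination genes that passed did so, with a median of 0.43, led by Eif5a, whose hypusine is made from spermidine (361 to 513 CPM), as did both proline genes, with a median of 0.32, Oat (44.0 to 56.8 CPM) and Pycrl (18.0 to 21.8 CPM). All 6 nitric oxide genes also lay above 0, with a median of 0.20. Among them Gch1, which makes the cofactor of nitric oxide synthase, stood at 31.5 and 39.9 CPM in vehicle and SB225002. The other lists had medians of 0.18 (citrulline and urea, 3 of 4 above 0), 0.02 (polyamines, 5 of 10) and -0.04 (transport, 2 of 4). In the polyamine list the antizyme Oaz1, a brake on Odc1, stood at 721 and 929 CPM, and the polyamine transporter Atp13a2 at 139 and 127 CPM.

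Activation and growth genes were read as context, beside the 2.87% of all genes past 2-fold in vehicle against sham and the 1.34% in SB225002 against vehicle. Of 10 genes of alternative activation, 7 passed in vehicle against sham and 1 was past 2-fold, the chitinase-like Chil3 (3.56 to 24.6 CPM); in SB225002 against vehicle 1 of 7 was past 2-fold lower, the scavenger receptor Cd163 (153 to 60.1 CPM), and the mannose receptor Mrc1, also a resident marker, stood at 1553 and 916 CPM. Of 10 genes of classical activation, 5 passed and 1 was past 2-fold in vehicle against sham, Il1b (5.47 to 49.3 CPM), which stood at 30.6 CPM in SB225002. Of 7 genes of MYC and growth, 6 passed and none was past 2-fold in either comparison, which at these shares sets them apart in no way. Myc itself was at 31.2, 21.6 and 20.5 CPM, and the lactate dehydrogenase Ldha at 292, 330.0 and 522 CPM in sham, vehicle and SB225002. These are sums over all MPCs, whose share in each gate differed between the libraries.

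Over 20 sums of cells (a gate in a library, at least 50 cells) and 6854 genes, the genes whose log2 levels ran most like Slc7a2 were, from Pearson r 0.82 down to 0.78, Ecm1, Gcsh, Itgav, Hcfc1r1 and Anpep. For Nos2 they were Adgrg3, Hdc, Mmp25, Dgat1 and Upp1, from 0.94 to 0.91, and for Odc1 Clpp, Gnas, Polr2m, Ccdc25 and Slc50a1, from 0.90 to 0.87. Among the members, Slc7a2 was at 0.52 with Odc1, 0.42 with Srm, 0.03 with Slc7a1, 0.02 with Ass1, -0.10 with Sat1 and -0.34 with Nos2. Odc1 was at 0.74 with Srm and -0.79 with Sat1. The Prg4+Serpinb2+ cells, too few for this, are not among the sums. These values are descriptions: the sums share 3 libraries and differ in depth, and neutrophils had the highest Nos2 level among those of each MI library.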

How the data were processed

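Single-cell RNA sequencing of 3 libraries, 1 per condition, was analysed from the gene-by-cell matrices of UMI counts deposited by the authors. The submitters' processing notes name the mm10 genome and Seurat 4.1.0, and the aligner and its settings are not given in the sources used here. Cells with 500 to 30000 UMIs, 500 to 5000 genes and a mitochondrial share under 10% were kept, the limits of the study's methods with 30000 read as UMIs. The kept cells hold 21655083 (sham), 26121162 (vehicle) and 31400723 (SB225002) UMIs. No table column belonged to another sample (0 columns).

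Each cell was gated by marker genes. A cell was an MPC with UMIs of at least 4 of 12 phagocyte markers and fewer than 50% of the markers of any other type, and cells with markers of more than 1 type were set apart as mixed. Doublets were not called otherwise. Subsets were taken in the order Prg4+Serpinb2+, Spp1+Gpnmb+, Ly6c-low, MHC II-high, Ly6c-high, Lyve1+Folr2+, with the rest split by C1q at 20 UMIs per 10000. The members and gene lists were chosen with earlier results of these data known, and the gate limits were set after the marker distributions and member values had been seen. UMIs were summed per gate and library and divided by the gate's total (CPM). Intervals are 95%, exact Poisson for levels, exact conditional for ratios and Clopper-Pearson for shares, and a count of 0 was given the limit of 3 UMIs. They cover counting error only, and cells are not replicates, so no p-value was computed. The scripts were tested on simulated data.

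Of the 9 members chosen by the rule, 7 are described, and 2 are not reported here. For Slc7a2, Nos2 and Odc1 the 5 genes with the highest Pearson correlation of log2(CPM + 10) over sums of at least 50 cells were named, and from each pathway list up to 4 genes with the largest ratios among those with at least 10 CPM. Companions of Slc7a2, its classes by UMI count and the Xist and Y-linked values were chosen after the data were seen. Python 3.11.15, numpy 2.4.6, scipy 1.17.1, pandas 2.3.3, matplotlib 3.10.9, R 4.3.3 and edgeR 4.0.16 (for TMM factors) were used. Alternatives were a mitochondrial limit of 5%, no cell filter, TMM scaling, thinning to 2000 UMIs, gates weighted to the vehicle library, a stricter MPC gate and no minimum level. Leaving out the 10 cells highest in Slc7a2 of each library, the dividing MPCs, or barcodes listed in another library were alternatives chosen after seeing the data.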

Additional observations from a re-analysis of the deposited data

Results flagged for a closer look

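Slc7a2 differed in direction between phagocyte gates when P10-MI_SB225002 was set against P10-MI_vehicle. Its log2 ratio was -0.82 in Spp1+Gpnmb+ cells, 2.63 in MHC II-high cells, 0.80 in Lyve1+Folr2+ macrophages and 0.70 in other C1q+ macrophages. The MHC II-high value rested on 13 SB225002 UMIs, all in 1 cell, and 2 vehicle UMIs. Ass1 likewise differed in direction, with log2 ratios of -0.62 in Spp1+Gpnmb+ cells and -0.87 in MHC II-high cells against 0.97 in Ly6c-high monocytes and 1.63 in Lyve1+Folr2+ macrophages. The differences between gates were not tested, since each library is 1 sample.

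Some members were also higher in the barcodes that the cell limits removed (1039 in sham, 1058 in P10-MI_vehicle and 1039 in P10-MI_SB225002) than in those of sham, with intervals that do not overlap. Slc7a2 stood at 11.9 CPM in vehicle and 13.1 CPM in SB225002 against 2.35 CPM in sham, and Ass1 at 14.4 and 13.8 CPM against 7.43 CPM. Odc1 stood at 44.4 CPM in SB225002 against 24.9 CPM and Sat1 at 370 CPM in vehicle against 323 CPM.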

How the results depend on the processing

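The count of members past 2-fold for vehicle over sham, 2, was 3 with no minimum level and 1 after thinning, with gates weighted to the vehicle library, with the stricter MPC gate, without the 10 cells highest in Slc7a2 and without barcodes listed in another library. In these 5 settings Ass1, at 10.5 CPM in the vehicle MPCs, fell below the minimum of 10 CPM, and its log2 ratio of vehicle over sham stayed between 1.36 and 3.26 over the settings tried. For SB225002 over vehicle the count, 0, was 1 with no minimum level and with the mitochondrial limit of 5%, where Slc7a2 was at -1.07. The Slc7a2 log2 ratio of vehicle over sham, 2.94, stayed between 2.17 and 3.85. Single members changed direction 4 times: after thinning, Odc1 of vehicle over sham was at -0.0141, and Nos2 and Slc7a2 of SB225002 over vehicle at 0.17 and 0.11. The thinned Nos2 value rests on 4 vehicle and 6 SB225002 MPCs with a UMI, too few to give a direction. With the limit of 5%, Ass1 of SB225002 over vehicle was at -0.00846. Nos2 of SB225002 over vehicle, -1.83, was at -0.19 without the 10 cells highest in Slc7a2. The cause of these differences was not tested. Of all alternative values for single members, 99 stayed within their counting interval and 24 moved outside it with the same direction, among them Nos2 of vehicle over sham (4.37), at 1.25 after thinning and 2.72 without the 10 cells highest in Slc7a2. Another was Ass1 of SB225002 over vehicle (0.25), at 0.62 without barcodes listed in another library. That setting kept 1129 of 2717 vehicle and 1938 of 3715 SB225002 MPCs.

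No paired analysis was possible because each condition has 1 library, and for the same reason no library was left out. Counts limit Nos2 in MPCs and every member in gates of few cells.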

Other observations

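Barcodes with markers of more than 1 cell type, which were kept out of the phagocyte gate (132 in sham, 223 in P10-MI_vehicle and 310 in P10-MI_SB225002), held Nos2 at 3.87, 17.5 and 13.5 CPM and Slc7a2 at 3.23, 3.19 and 7.76 CPM.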
